A study of Rattus norvegicus with 16 samples.

Results

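The subunits of the oxidative phosphorylation machinery were compared between hearts of 2-day-old rats of a strain with enlarged hearts and its control strain. The members were the genes whose symbols carry the usual prefixes of the respiratory chain (Ndufa, Ndufb, Ndufc, Ndufs, Ndufv, Uqcr, Cox4 to Cox8 and Atp5), together with the succinate dehydrogenase genes and cytochrome c. They were found through the array's gene annotation, on probe sets annotated to exactly 1 symbol. The rule found 93 probe sets of 81 genes, out of 14324 genes named in this way, and the brightest probe set stood for each gene. Of the 81 members, 74 encode subunits of the 5 complexes or cytochrome c, 5 are assembly or accessory proteins that share the prefixes, and 2 carry a pseudogene symbol. Cyc1, Cox7a1 and Cox6b1 were not analysed here, and none of the 13 subunits encoded by mitochondrial DNA was among the named genes.

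The respiratory chain lies in the inner mitochondrial membrane. Complex I takes electrons from NADH and complex II takes them from succinate; both pass them through coenzyme Q to complex III, cytochrome c and complex IV, where oxygen is reduced. Complexes I, III and IV pump protons, and complex V, the ATP synthase, uses the gradient to make ATP. The heart is among the tissues richest in this machinery, and around birth heart muscle turns from glycolysis towards the oxidation of fatty acids.

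The tested strain was the Hypertrophic Heart Rat (HHR), an inbred line whose hearts are labelled hypertrophic, and the control strain was the Normal Heart Rat (NHR). Each strain gave 4 female and 4 male hearts at 2 days of age, each hybridised to an Affymetrix rat gene array of its own without pooling. No rat carried a treatment or an engineered allele. The design text names ventricles freed of atria, whereas the growth protocol names the heart as a whole, so the tissue is called heart here. The labels name no litters or dams: the p-values measure the spread between these arrays, and litter and strain cannot be told apart. In such bulk tissue, fewer cells of a type and less RNA per cell cannot be told apart.

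Array medians lay between 7.19 and 7.28 on the log2 scale. Along the first component of the deviations from group means, computed over all probe sets, NHR female 3, NHR female 4 and NHR male 4 had scores of 14.4, 15.1 and 22.6, and the next highest array had 7.48. At the other end NHR female 1, NHR female 2, NHR male 1 and NHR male 2 had scores from -16.9 to -11.1, and the next lowest array had -3.72. The remaining NHR array, NHR male 3, scored 1.74, and the HHR arrays lay between -3.72 and 7.48. Of the members, 59 of 81 (72.8%) had a positive loading on the component, against 57.4% of all probe sets and 51.6% of named genes. The sign of a loading gives its direction and not its size. The standard deviation was larger among NHR than among HHR arrays for 75 of 81 members (92.6%), against 70.1% of all probe sets. Among HHR females the members had a median standard deviation of 0.0439, against 0.116 among NHR females. Among males the median was 0.0506 for HHR, against 0.1 for NHR. Over all probe sets the medians were 0.0864 for HHR females, against 0.117 for NHR females, and 0.094 for HHR males, against 0.123 for NHR males. Results are therefore also given without the 3 NHR arrays of high score and without the 4 of low score; both sets were chosen after seeing the data. The cardiac muscle markers were bright on all arrays, with group means of Myh6, Myh7, Tnnt2, Tnni3, Actc1, Ryr2, Pln, Myl2 and Myl3 between 12.2 and 14.2.

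Differences in subunit RNA between the strains were small and ran both ways. By limma on all 27342 probe sets, 21 of the 81 members were higher in HHR, 6 were lower and 54 did not pass an adjusted p of 0.05. Those 27 make 33.3% of the members, beside 20.7% of all probe sets (9.64% higher and 11.0% lower) and 23.1% of named genes (11.8% higher and 11.2% lower). With dim probe sets left out, 33.5% of the probe sets fitted were called, and 21 members were higher and 8 lower of 79. The share of all probe sets called thus depended on whether dim ones were counted. In the fit of all probe sets, the differences of the 81 members ranged from -0.47 to 0.27 on the log2 scale. Their median was 0.02, beside -0.03 over all probe sets. Of the members, 46 had a positive difference and 35 a negative one. This majority turned with the scaling: 33 were positive and 48 negative after cyclic loess between arrays (median -0.03), 35 and 46 after quantile normalization (median -0.03), and 52 and 29 after median centring (median 0.04). All 8 HHR arrays lay above all 8 NHR arrays for 3 members (Ndufab1, Ndufs7 and Ndufaf1) and below them for 2 (Ndufa10 and Ndufs6-ps1), where 1.95% and 2.20% of all probe sets separated in those directions (4.15% in either).

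The split between higher and lower calls depended on scaling too. After cyclic loess 14 members were higher and 8 lower (19.9% of all probe sets were called), after quantile normalization 13 and 8 (19.7%), and after median centring 21 and 4 (19.1%). The share of calls that were higher was 63.6%, 61.9% and 84% in those fits, against 77.8% in the values as deposited. Without the 3 NHR arrays of high score, 13 members were higher and 3 lower (14.6% of all probe sets were called), and 16 of the 27 calls were kept. The calls lost then were Ndufa8, Ndufa9, Ndufab1, Ndufs4, Uqcr11, Uqcrfs1, Uqcrh, Cox6b2, Atp5f1d, Atp5mc2 and Atp5me. Without the 4 NHR arrays of low score, 19 members were higher and 18 lower (28.3% of all probe sets were called), 35 differences were positive and 46 negative, and 24 of the 27 calls were kept, with Ndufa5, Ndufb9 and Atp5mk lost. Called in all 28 alternative settings were 12 members: Ndufa10, Ndufb6, Ndufb11, Ndufs5, Ndufs7, Ndufv2, Sdhb, Sdhc, Sdhd, Cox6a1, Ndufaf1 and Ndufs6-ps1.

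**Figure D1:**
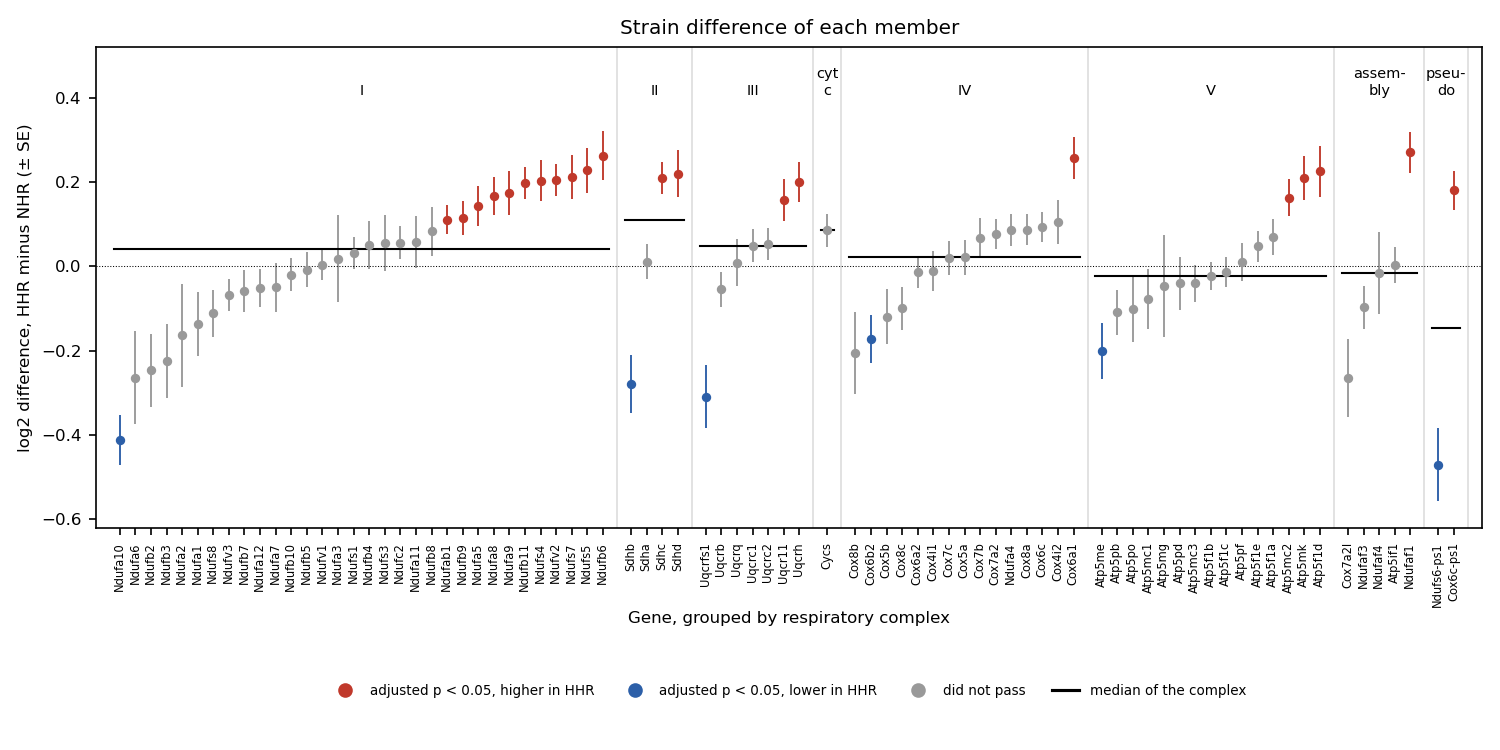
Each point is the log2 difference of 1 member, HHR minus NHR, and its bar the standard error from limma, ordered by size within each complex, with a horizontal line at the complex's median. Red marks members higher and blue members lower in HHR at an adjusted p under 0.05, and both colours occur in each of the 5 complexes, over a range from -0.47 to 0.27.

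Complex I, the NADH dehydrogenase, is the largest of the complexes. Of its 32 measured members, 11 were higher in HHR, 1 was lower and 20 did not pass (37.5% called). Its median difference was 0.04, but -0.0041 after quantile normalization, -0.01 after cyclic loess and -0.04 without the 4 NHR arrays of low score, where 6 members were lower. The higher subunits came from both the peripheral and the membrane arm. Among those of the peripheral arm, Ndufv2, an iron-sulphur subunit of the NADH-binding tip, measured 12.77, 12.86 and 12.89 on the lowest, median and highest HHR array, against 12.53, 12.65 and 12.77 in NHR. It was 0.20 ± 0.04 higher (limma difference ± SE, 8 arrays per strain, adjusted p = 0.0013), and 7 of 8 HHR arrays lay above every NHR array. Ndufs7, which holds the iron-sulphur cluster next to the quinone site, measured 12.73, 12.79 and 12.90 in HHR, against 12.30, 12.61 and 12.72 in NHR. It was 0.21 ± 0.05 higher (limma adjusted p = 0.0084), with no overlap between the strains. Ndufs4, an accessory subunit whose loss in humans causes Leigh syndrome, was 0.20 higher (limma adjusted p = 0.0061), and the strains overlapped. Ndufs4 differed by 0.13 and missed the threshold without the 3 NHR arrays of high score (limma adjusted p = 0.0526). The quinone-arm subunits Ndufa5 and Ndufa9 were 0.14 and 0.17 higher (limma adjusted p = 0.0397 and 0.0249). The catalytic subunits Ndufs1, which carries several of the iron-sulphur clusters, and Ndufv1, which binds NADH and flavin, differed by 0.03 and 0.00 and did not pass (limma adjusted p = 0.594 and 0.959).

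Subunits of the membrane arm and of the intermembrane face made up much of the rest. Ndufb6 measured 13.29, 13.36 and 13.43 in HHR, against 12.84, 13.18 and 13.29 in NHR. It was 0.26 ± 0.06 higher (limma adjusted p = 0.0046), and its lowest values were those of NHR female 3 and NHR female 4. Ndufb6 was 0.14 higher without the 3 NHR arrays of high score (limma adjusted p = 0.0207), and without the 4 of low score 0.39 higher (limma adjusted p = 4.0e-05). Ndufb11, encoded on the X chromosome in mammals, measured 12.71, 12.78 and 12.82 in HHR, against 12.48, 12.56 and 12.75 in NHR. It was 0.20 ± 0.04 higher (limma adjusted p = 0.0019), with 7 of 8 HHR arrays above every NHR array. Ndufs5, on the intermembrane face, measured 11.31, 11.37 and 11.50 in HHR, against 10.91, 11.15 and 11.34 in NHR. It was 0.23 ± 0.05 higher (limma adjusted p = 0.0055), and its second probe set was 0.16 higher. Ndufa8, on the same face, and Ndufb9, in the distal membrane arm, were 0.17 and 0.11 higher (limma adjusted p = 0.0137 and 0.0492). Ndufab1, the mitochondrial acyl carrier protein that also serves as a subunit, measured 12.53, 12.55 and 12.61 in HHR, against 12.38, 12.46 and 12.49 in NHR. Its difference of 0.11 ± 0.03 was small, but no array of one strain reached those of the other (limma adjusted p = 0.0314).

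Ndufa10, an accessory subunit with a nucleoside kinase fold, was the exception to the direction of the other called complex I subunits. It measured 7.84, 7.99 and 8.16 in HHR, against 8.25, 8.41 and 8.58 in NHR, with no overlap. It fell by 0.41 ± 0.06, a 1.33-fold lower level in HHR (limma adjusted p = 1.7e-04). The dim signal of this probe set was matched by a brighter one annotated to both Ndufa10 and its neighbour in name Ndufa10l1, which no member count includes. That probe set averaged 11.82 ± 0.07 in HHR and 12.32 ± 0.07 in NHR (SD, n = 8 each), a difference of -0.51 (limma adjusted p = 6.5e-07), again with all 8 HHR arrays below all 8 NHR arrays. Among the subunits that did not pass, Ndufb2 and Ndufa6 had differences of -0.25 and -0.26 (limma adjusted p = 0.0506 and 0.101). Without the 3 NHR arrays of high score these were -0.10 and -0.03 (limma adjusted p = 0.314 and 0.822). Without the 4 of low score they were -0.40 and -0.52, and both passed (limma adjusted p = 0.0027 and 2.4e-04). Ndufv3 had probe sets that disagreed: the brighter one differed by -0.07 and did not pass, and the dimmer one was 0.15 higher (limma adjusted p = 0.0363).

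Some complex I calls lay close to the threshold and crossed it when single arrays were left out, with differences of like size. Ndufa5 stayed called only when HHR male 4, NHR female 3 or NHR male 2 was the array left out, while its difference ran from 0.12 to 0.17 (limma adjusted p up to 0.0827, without HHR male 3). Ndufb9 stayed called only without NHR male 2 or NHR male 4, with differences from 0.09 to 0.13 over all such fits (limma adjusted p up to 0.101, without NHR male 1). Ndufab1 lost its call without HHR female 1, 2 or 3, HHR male 2 or 3, NHR female 3 or NHR male 1 or 3. Over all such fits the Ndufab1 difference ran from 0.10 to 0.12 (limma adjusted p up to 0.0642). Ndufa9 lost its call without HHR female 2, NHR female 3 or NHR male 3. Its difference over all fits with 1 array left out ran from 0.15 to 0.21 (limma adjusted p up to 0.0550).

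Complex II, succinate dehydrogenase, showed opposite differences among its 4 subunits. Sdhc and Sdhd, the membrane anchors that hold the haem and the quinone site, were higher in HHR, Sdhb, the iron-sulphur subunit, was lower, and Sdha, the flavoprotein that oxidises succinate, did not pass. All 4 genes are encoded in the nucleus and the assembled enzyme holds their products in equal number. The windows from 250 bases before to 50 bases after the annotated start of each gene are printed because the differences ran opposite ways within this smallest complex. They come from RefSeq on the rat assembly GRCr8, at chr1:30764303-30764602 (plus strand) for Sdha, chr5:158547684-158547983 (plus strand) for Sdhb, chr13:86097976-86098275 (minus strand) for Sdhc and chr8:59850592-59850891 (minus strand) for Sdhd. Each is written 5′ to 3′ on the gene's strand, and capitals mark matches, on either strand, to the letters TGCGCA (the core of the motif of NRF1), CCGGAAG (an ETS motif bound by GABP), AAGATGG (the first letters of a motif of YY1) or AAGGTCA (the oestrogen-related receptors, ERR).
Sdha: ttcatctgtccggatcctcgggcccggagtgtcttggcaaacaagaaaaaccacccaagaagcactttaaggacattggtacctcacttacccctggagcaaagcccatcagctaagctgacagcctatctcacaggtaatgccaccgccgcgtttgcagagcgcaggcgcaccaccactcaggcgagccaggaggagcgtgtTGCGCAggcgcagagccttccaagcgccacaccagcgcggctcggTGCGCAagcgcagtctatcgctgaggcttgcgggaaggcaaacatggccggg
Sdhb: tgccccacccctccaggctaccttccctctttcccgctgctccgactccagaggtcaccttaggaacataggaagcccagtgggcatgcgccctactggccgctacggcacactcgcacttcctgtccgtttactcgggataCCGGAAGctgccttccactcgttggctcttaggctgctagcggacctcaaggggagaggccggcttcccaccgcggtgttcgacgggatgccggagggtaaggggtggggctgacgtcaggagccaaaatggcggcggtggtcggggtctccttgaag
Sdhc: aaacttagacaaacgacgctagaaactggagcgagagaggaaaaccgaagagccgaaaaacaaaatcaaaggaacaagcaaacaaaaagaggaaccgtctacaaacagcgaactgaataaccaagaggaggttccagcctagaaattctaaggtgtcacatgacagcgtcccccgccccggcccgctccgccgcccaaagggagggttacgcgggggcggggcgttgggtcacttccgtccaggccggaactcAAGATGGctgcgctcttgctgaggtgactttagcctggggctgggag
Sdhd: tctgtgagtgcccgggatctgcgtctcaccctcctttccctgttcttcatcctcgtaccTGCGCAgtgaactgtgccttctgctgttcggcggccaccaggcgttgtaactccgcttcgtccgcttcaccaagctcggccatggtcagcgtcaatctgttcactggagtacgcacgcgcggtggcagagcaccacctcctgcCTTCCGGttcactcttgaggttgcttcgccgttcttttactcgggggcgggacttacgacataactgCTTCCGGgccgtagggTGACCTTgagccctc

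The Sdha window held the NRF1 core, the Sdhb window the ETS letters, the Sdhd window the NRF1 core with the ETS and ERR letters, and the Sdhc window the YY1 letters. Windows were found for 71 of the 81 members. The NRF1 core was in 21 of them (29.6%), against 7.24% of the 33469 windows in the table and 10.5% of the 12364 windows of genes named on the array. The ETS letters were also in 21 (29.6% against 8.75% and 12.9%), the YY1 letters in 15 (21.1% against 7.01% and 7.46%) and the ERR letters in 10 (14.1% against 4.61% and 3.37%). No motif searched contains another, and NRF1's core is its own reverse complement. By call, the NRF1 core was in 7 of 16 windows of members higher in HHR, 0 of 5 of members lower and 14 of 50 of members that did not pass. The ETS letters were in 4, 2 and 15 of the same windows, the YY1 letters in 4, 1 and 10, and the ERR letters in 2, 0 and 8. Such a match is a run of letters and shows no binding.

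The array values of complex II were as follows. Sdhc measured 13.21, 13.26 and 13.30 on the lowest, median and highest HHR array, against 12.90, 13.06 and 13.21 in NHR. It was 0.21 ± 0.04 higher (limma adjusted p = 0.0011), and 7 of 8 HHR arrays lay above every NHR array. Sdhd measured 11.60, 11.66 and 11.79 in HHR, against 11.34, 11.41 and 11.70 in NHR. It was 0.22 ± 0.06 higher (limma adjusted p = 0.0099), with overlap because NHR male 2 and NHR male 4 were high. Sdhb measured 11.34, 11.41 and 11.51 in HHR, against 11.50, 11.62 and 11.99 in NHR. It fell by 0.28 ± 0.07 (limma adjusted p = 0.0085), and 7 of 8 HHR arrays lay below every NHR array. The highest Sdhb values were those of NHR female 3, NHR female 4 and NHR male 4, and without them Sdhb fell by 0.15 (limma adjusted p = 0.0345); without the 4 NHR arrays of low score it fell by 0.42 (limma adjusted p = 3.3e-04). Sdha measured 11.98, 12.02 and 12.11 in HHR, against 11.92, 12.03 and 12.13 in NHR, a difference of 0.01 ± 0.04 (limma adjusted p = 0.881). The tests were made gene by gene, and the difference between subunits was not tested.

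**Figure D2:**
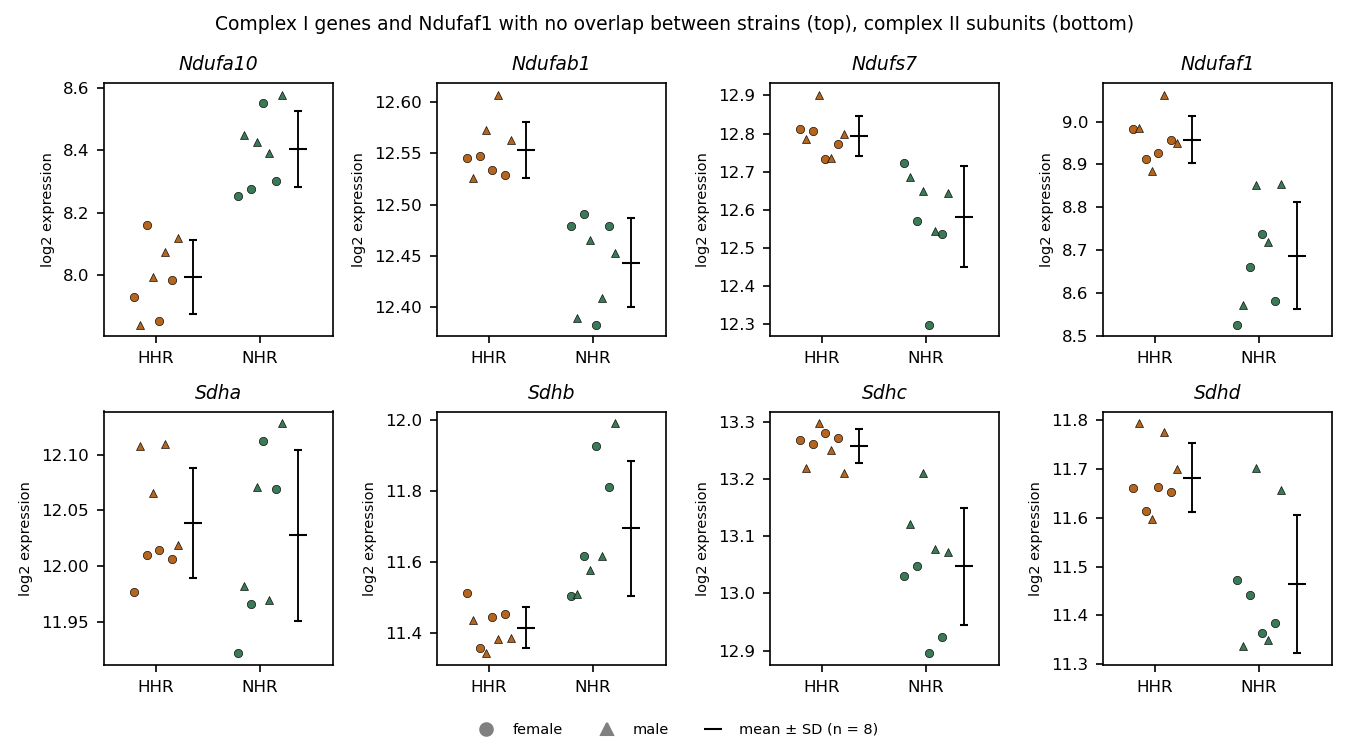
Log2 expression of 8 genes on each array, HHR left of NHR, circles for females and triangles for males, with bars for the mean ± SD of 8 arrays; each panel has its own axis. Ndufa10, Ndufab1, Ndufs7 and Ndufaf1 separate the strains, Sdhb runs opposite to Sdhc and Sdhd, and Sdha overlaps throughout.

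Complex III, the cytochrome bc1 complex, had 2 higher, 1 lower and 4 subunits that did not pass among 7 measured, with a median difference of 0.05. Uqcrfs1, the Rieske iron-sulphur protein, measured 10.75, 10.86 and 11.00 in HHR, against 10.92, 11.20 and 11.48 in NHR. It fell by 0.31 ± 0.07 (limma adjusted p = 0.0069), with 6 of 8 HHR arrays below every NHR array. Uqcrh, the hinge protein between cytochromes c1 and c, measured 13.04, 13.10 and 13.18 in HHR, against 12.72, 12.91 and 13.11 in NHR. It was 0.20 ± 0.05 higher (limma adjusted p = 0.0064), and 3 of 8 HHR arrays lay above every NHR array. Uqcr11, a small subunit, measured 13.70, 13.79 and 13.81 in HHR, against 13.40, 13.60 and 13.81 in NHR, and was 0.16 ± 0.05 higher with overlap (limma adjusted p = 0.0339). The core proteins Uqcrc1 and Uqcrc2 each differed by 0.05 and did not pass (limma adjusted p = 0.423 and 0.346). Without the 3 NHR arrays of high score the calls of Uqcrfs1, Uqcrh and Uqcr11 were lost, at differences of -0.19, 0.14 and 0.09 (limma adjusted p = 0.0575, 0.0549 and 0.245). Without the 4 of low score Uqcr11 was 0.25 higher (limma adjusted p = 9.3e-04). Uqcr11 stayed called only when HHR female 4, HHR male 1, NHR female 1, NHR female 2, NHR male 1 or NHR male 2 was left out, with differences from 0.13 to 0.19 over all such fits (limma adjusted p up to 0.0727, without NHR male 3). Cycs, the mobile electron carrier cytochrome c, measured 13.37, 13.44 and 13.50 in HHR, against 13.24, 13.36 and 13.43 in NHR, a difference of 0.09 that did not pass (limma adjusted p = 0.141).

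Complex IV, cytochrome c oxidase, is counted with Ndufa4, a subunit first assigned to complex I and not counted there. Complex IV had 1 of 15 subunits higher, 1 lower and 13 that did not pass (13.3% called). Its median difference was 0.02, but -0.01 after quantile normalization and -0.03 after cyclic loess. The higher one was Cox6a1, the widely expressed isoform of subunit 6a. It measured 12.80, 12.99 and 13.12 in HHR, against 12.56, 12.75 and 12.82 in NHR, a difference of 0.26 ± 0.05 (limma adjusted p = 0.0018), and 7 of 8 HHR arrays lay above every NHR array. Its partner Cox6a2, the isoform of heart and skeletal muscle, measured 13.07, 13.13 and 13.20 in HHR, against 13.04, 13.14 and 13.29 in NHR. Cox6a2 differed by -0.01 ± 0.04 and did not pass (limma adjusted p = 0.847); whether the isoforms differ in their response was not tested. Cox6b2, known as the testis isoform of subunit 6b, was dim, at 6.48, 6.80 and 6.92 in HHR, against 6.84, 6.92 and 7.08 in NHR. It fell by 0.17 ± 0.06 (limma adjusted p = 0.0404). Cox6b2 stayed called only when HHR female 2, HHR female 3, NHR female 1, NHR female 2 or NHR male 2 was left out, with differences from -0.20 to -0.13 over all such fits (limma adjusted p up to 0.0844, without NHR female 4).

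The other isoform pairs of complex IV did not pass. Cox4i1, the main form of subunit 4, differed by -0.01 and Cox4i2, its hypoxia-responsive form, by 0.10 (limma adjusted p = 0.899 and 0.177). Cox8a differed by 0.09 and Cox8b, the heart and muscle form of subunit 8 in rodents, by -0.21 (limma adjusted p = 0.112 and 0.149). The Cox8b difference was -0.01 without the 3 NHR arrays of high score and -0.42 without the 4 of low score, where it passed (limma adjusted p = 0.953 and 0.0016). Cox7a2, the widely expressed form of subunit 7a, differed by 0.08, and Cox5a by 0.02 (limma adjusted p = 0.138 and 0.767).

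Complex V, the ATP synthase, had 3 higher, 1 lower and 11 subunits that did not pass among 15, with a median difference of -0.02. Atp5f1d, the delta subunit of the central stalk, measured 13.91, 13.95 and 13.99 in HHR, against 13.40, 13.77 and 13.96 in NHR. It was 0.23 ± 0.06 higher (limma adjusted p = 0.0135), and its lowest values were those of NHR female 3 and NHR female 4. Atp5f1d differed by 0.12 and missed the threshold without the 3 NHR arrays of high score (limma adjusted p = 0.0923), and without the 4 of low score it was 0.36 higher (limma adjusted p = 4.2e-05). Atp5mk, a small membrane protein of the synthase dimer also called DAPIT, measured 12.45, 12.54 and 12.68 in HHR, against 12.20, 12.35 and 12.52 in NHR. It was 0.21 ± 0.05 higher (limma adjusted p = 0.0095), and its second probe set was 0.22 higher. Atp5me, the e subunit at the dimer interface, measured 9.17, 9.39 and 9.46 in HHR, against 9.31, 9.57 and 9.76 in NHR, and fell by 0.20 ± 0.07 (limma adjusted p = 0.0377). Atp5me lost its call without any of HHR female 1, 3 or 4, HHR male 2, NHR female 3 or 4, or NHR male 2 or 4, with differences from -0.24 to -0.16 over all such fits (limma adjusted p up to 0.0836). It differed by -0.12 without the 3 NHR arrays of high score (limma adjusted p = 0.249).

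The 3 genes for the proton-carrying c ring encode the same mature protein. Of these, Atp5mc2 measured 12.44, 12.53 and 12.59 in HHR, against 12.27, 12.34 and 12.49 in NHR. Atp5mc2 was 0.16 ± 0.04 higher (limma adjusted p = 0.0126), and its second probe set was 0.18 higher. Atp5mc1 and Atp5mc3 differed by -0.08 and -0.04 and did not pass (limma adjusted p = 0.477 and 0.553); without the 4 NHR arrays of low score Atp5mc1 fell by 0.21 (limma adjusted p = 0.0285). The catalytic head subunits Atp5f1a and Atp5f1b differed by 0.07 and -0.02 and did not pass (limma adjusted p = 0.283 and 0.668). Without the 3 NHR arrays of high score, Atp5mk was the only complex V member still called; without the 4 of low score it was among the calls lost (limma adjusted p = 0.0595) and 5 complex V members were lower.

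**Figure D3:**
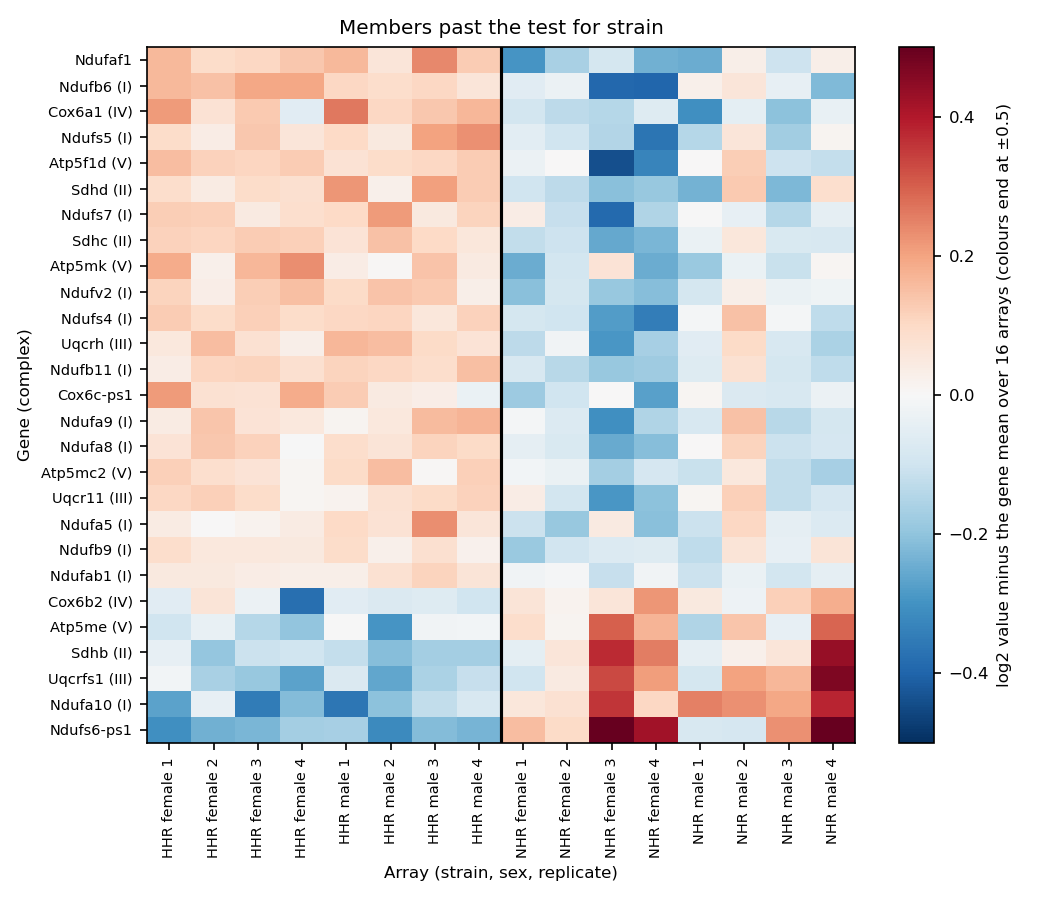
Heat map of the 27 called members (down the page, complex in brackets) on the 8 HHR arrays (left) and the 8 NHR arrays (right); colour gives the log2 value minus the gene's mean over the 16 arrays, red above and blue below, ending at ±0.5. The strongest colours are in NHR female 3, NHR female 4 and NHR male 4, such as the low Atp5f1d in NHR female 3 and the high Ndufs6-ps1 in all 3.

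Among the assembly and accessory proteins, 1 of 5 was higher and 4 did not pass. Ndufaf1, an assembly factor of the complex I membrane arm, measured 8.88, 8.95 and 9.06 in HHR, against 8.53, 8.69 and 8.85 in NHR. It was 0.27 ± 0.05 higher with no overlap (limma adjusted p = 0.0010). Cox7a2l, which links complexes III and IV into supercomplexes, differed by -0.27 (limma adjusted p = 0.0504). The Cox7a2l difference was -0.07 without the 3 NHR arrays of high score (limma adjusted p = 0.410). Without the 4 of low score it was -0.49 and passed (limma adjusted p = 6.8e-05). Both members with a pseudogene symbol were called, in opposite directions. Ndufs6-ps1 measured 11.18, 11.27 and 11.34 in HHR, against 11.42, 11.69 and 12.09 in NHR. It fell by 0.47 ± 0.09 with no overlap (limma adjusted p = 0.0012), and its second probe set fell by 0.51. Ndufs6 itself was not analysed here, and a probe set named for a pseudogene can share sequence with its parent, so the source of this signal is uncertain. Ndufs6-ps1 fell by 0.31 without the 3 NHR arrays of high score (limma adjusted p = 0.0029). Cox6c-ps1, a dim probe set, measured 5.36, 5.46 and 5.60 in HHR, against 5.12, 5.31 and 5.40 in NHR, and was 0.18 ± 0.05 higher (limma adjusted p = 0.0095).

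The mean of all members hardly separated the strains. As the mean deviation of the 81 members from their averages over all arrays, it lay between -0.02 and 0.03 on HHR arrays, against -0.10 and 0.11 on NHR arrays. All HHR values therefore fell inside the NHR range. The same held for each of the 5 complexes taken alone. The mean of complex I ran from -0.04 to 0.04 in HHR, against -0.10 to 0.11 in NHR, and that of complex V from -0.02 to 0.03 in HHR, against -0.13 to 0.11 in NHR.

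**Figure D4:**
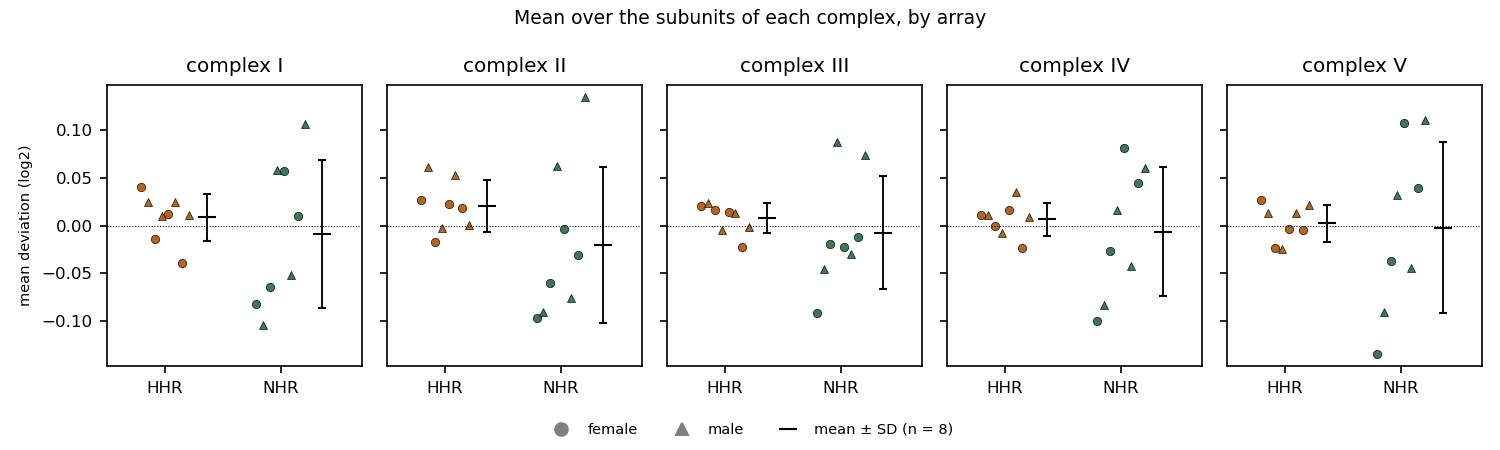
Mean log2 deviation of the members of each complex on each array, HHR left of NHR in each panel, circles for females and triangles for males, with bars for the mean ± SD of 8 arrays. HHR arrays stay within -0.04 and 0.06 for the 5 complexes, inside the wider range of the NHR arrays.

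The difference between the strains varied with the brightness of the probe set. When members were split at their median level of 12.26 over all arrays, 16 of the 41 brighter members were higher in HHR and 0 were lower, with a median difference of 0.08. Of the 40 dimmer members, 5 were higher and 6 lower, with a median of -0.05. After cyclic loess the brighter members had 10 higher and 2 lower and the dimmer ones 4 higher and 6 lower. Across the 81 members the difference and the level had a Pearson correlation of 0.35 (Spearman 0.44), and 0.19 (Spearman 0.32) after loess. Across the 14324 named genes it was 0.20 (Spearman 0.21), and 0.06 (Spearman 0.04) after loess. These are descriptions across genes that share the same 16 arrays, and genes are not independent replicates. The level of a probe set depends on its probes as well as on RNA.

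**Figure D5:**
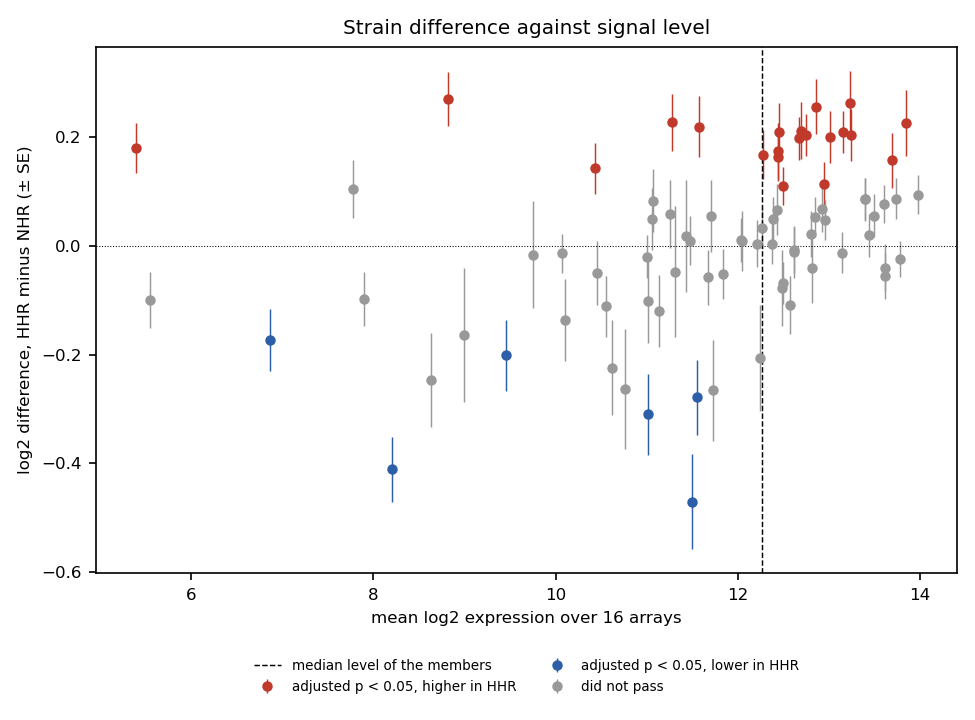
Log2 difference of each member, HHR minus NHR, with its standard error from limma, against its mean log2 level over the 16 arrays; red marks members higher and blue members lower in HHR. The 6 lower members lie below the dashed median level of 12.26, and 16 of the 21 higher ones lie above it.

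Taken by sex, 2 members were called in males and 15 in females, where 4.02% (2.03% higher and 1.98% lower) and 12.0% (5.78% higher and 6.21% lower) of all probe sets were called. In males these were Ndufa10, which fell by 0.46 (limma adjusted p = 0.0049), and Cox6a1, 0.32 higher (limma adjusted p = 0.0189). In females 13 were higher and 2 lower. The difference between males and females in the strain effect passed for 0 members (0% of all probe sets) by limma. Of the 81 members, 5 had an unadjusted p under 0.05, which some members reach by chance alone. Ndufb10, a subunit of the membrane arm of complex I, had the smallest p, with a strain difference 0.23 larger in males than in females (limma adjusted p = 0.969). The difference had the same sign in both sexes for 63 of all 81 members. Males against females, 0 members were called by limma (0.0110% of all probe sets, 0.00366% higher and 0.00731% lower in males), and 0 had an unadjusted p under 0.05. The smallest adjusted p was that of Ndufs4, 0.10 higher in males (limma adjusted p = 0.785).

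Genes that feed or assemble the chain were counted beside it. Of all named genes, 11.8% were higher and 11.2% lower in HHR. Of all probe sets, 14.6% were called without the 3 NHR arrays of high score and 28.3% without the 4 of low score. All 8 HHR arrays lay above all 8 NHR arrays for 1.95% of all probe sets and below them for 2.20%. Of 15 measured genes of the tricarboxylic acid cycle and pyruvate dehydrogenase, 10 were higher in HHR and 0 lower, with a median difference of 0.20. Without the 3 NHR arrays of high score 8 were higher and 0 lower, and without the 4 of low score 10 and 2. Suclg2, the GTP-forming subunit of succinyl-CoA ligase, was 0.71 higher, with all 8 HHR arrays above all NHR arrays (limma adjusted p = 9.8e-04), and 0.44 higher without the 3 NHR arrays of high score (limma adjusted p = 0.0012). Pdhx, a structural component of pyruvate dehydrogenase, was 0.32 higher (limma adjusted p = 0.0011). Of 12 carriers and channels of the mitochondrial membranes, 4 were higher and 0 lower (4 and 1 without the 3 arrays, 4 and 0 without the 4), among them Slc25a5, an exchanger of ADP and ATP, by 0.27 (limma adjusted p = 4.5e-04), and Slc25a11, the oxoglutarate carrier, by 0.28 (limma adjusted p = 5.6e-04). Of 15 genes of cristae and supercomplex organisation, 7 were higher and 0 lower (6 and 0 without the 3 arrays, 7 and 1 without the 4), among them Mtx2 by 0.35 and the prohibitin Phb1 by 0.31 (limma adjusted p = 7.5e-04 and 8.7e-04).

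Other lists ran both ways, beside 11.8% of named genes higher and 11.2% lower. Of 28 assembly factors, 7 were higher and 2 lower (2 and 1 without the 3 arrays, 10 and 2 without the 4), with Tmem70, which assists ATP synthase assembly, 0.35 higher and Uqcc3, a complex III factor, at a difference of -0.32 (limma adjusted p = 0.0012 and 0.0031). Without the 3 arrays Uqcc3 fell by 0.19 (limma adjusted p = 0.0145). Of 12 genes of coenzyme Q synthesis, 2 were higher and 1 lower (3 and 0 without the 3 arrays, 1 and 1 without the 4), with Coq5, a methyltransferase of the pathway, 0.22 higher and the atypical kinase Coq8a at a difference of -0.40 (limma adjusted p = 0.0108 and 0.0118). Coq8a did not pass without the 3 arrays, nor Coq5 without the 4 (limma adjusted p = 0.0580 and 0.0526). Of 14 regulators of mitochondrial gene expression, 4 were higher and 4 lower (3 and 2 without the 3 arrays, 6 and 5 without the 4). Tfam, which packages mitochondrial DNA, was 0.28 higher, with all 8 HHR arrays above all NHR arrays (limma adjusted p = 1.9e-04), and Tfb1m, a methyltransferase of mitochondrial ribosomal RNA, was 0.58 higher (limma adjusted p = 0.0011), and 0.37 higher without the 3 arrays (limma adjusted p = 0.0044). The other higher genes were the coactivator Ppargc1a (0.24) and Gabpa (0.19), a subunit of the GABP factor (limma adjusted p = 0.0119 and 0.0239). The lower genes were the transcription factors Nrf1 (-0.13), Esrra (-0.20) and Esrrg (-0.20) and Polrmt (-0.22), the mitochondrial RNA polymerase (limma adjusted p = 0.0288, 0.0117, 0.0041 and 0.0033). For Esrrg all 8 HHR arrays lay below all NHR arrays. Without the 3 arrays, Ppargc1a, Gabpa, Nrf1 and Esrra did not pass (limma adjusted p = 0.111, 0.152, 0.134 and 0.0862).

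Cell type markers were counted the same way, again beside 11.8% of named genes higher and 11.2% lower. Of 9 heart muscle markers, 0 were higher and 5 lower in HHR (0 and 2 without the 3 arrays, 0 and 6 without the 4); their mean deviation ran from -0.09 to 0.01 on HHR arrays, against -0.01 to 0.11 on NHR arrays. Of 6 atrial markers, 4 were higher and 0 lower (3 and 0 without the 3 arrays, 4 and 0 without the 4), including Bmp10, a growth factor of the atria, by 1.05 (limma adjusted p = 9.5e-06), with a mean from -0.03 to 0.79 in HHR, against -0.47 to 0.14 in NHR. Of 6 endothelial markers, 0 were higher and 4 lower (0 and 4 without the 3 arrays, 0 and 3 without the 4), with a mean from -0.17 to -0.02 in HHR, against -0.02 to 0.18 in NHR. Of 7 fibroblast markers, 3 were higher and 0 lower (2 and 0 without the 3 arrays, 4 and 0 without the 4), with a mean from -0.12 to 0.21 in HHR, against -0.27 to 0.01 in NHR. Of 4 epicardial markers, 1 was higher and 0 lower (the same counts without either set of arrays), with a mean from -0.05 to 0.34 in HHR, against -0.32 to 0.16 in NHR. Erythroid markers were 1 higher and 2 lower of 4, leukocyte markers 1 and 1 of 7, mural markers 1 and 1 of 5, skeletal muscle markers 0 and 1 of 5, and brown fat markers 0 and 0 of 3. Without the 3 arrays, mural and skeletal muscle markers had 0 and 0; without the 4, skeletal muscle markers had 0 and 0 and leukocyte markers 1 and 2. Their part in the differences of the respiratory chain was not tested.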

How the data were processed

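RNA of 16 hearts was measured on Affymetrix arrays. The authors deposited log2 values. RMA and limma are named in the submitters' processing notes, without versions. RMA removes background, scales arrays to each other and combines the probes of a probe set, so small differences depend on that scaling. Gene names came from the platform annotation: 15097 probe sets had 1 symbol, 323 several and 11922 none. All 81 members matched the RefSeq gene table by gene ID, and promoter windows came from RefSeq.

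From these values, limma 3.58.1 in R 4.3.3 was fitted to all 27342 probe sets with a mean for each strain and sex. Strain differences were averaged over the sexes, with Benjamini-Hochberg adjustment over all probe sets and a threshold of 0.05. No filter was set in the fit reported. Members, their grouping by complex and all gene lists were chosen with earlier results of these data known. Named were all called members, fixed core subunits and isoform pairs, and up to 2 genes per other list by adjusted p; Ndufb2, Ndufa6, Ndufv3, Uqcrc2, Cox7a2l, Bmp10, Ppargc1a, Gabpa, Nrf1, Esrra, Esrrg and Polrmt were named after their values were seen. Alternatives changed the normalization, filter, moderation, array weights, threshold, probe sets and arrays. The labels do not say what a replicate number stands for, so the fit reported did not pair samples by it. Deviations of same-numbered HHR and NHR arrays correlated between -0.108 and 0.301, above 0.1 for 2 of 8 pairs. Those of other-numbered arrays correlated between -0.253 and 0.162, above 0.1 for 4 of 24 pairs. So few pairs cannot decide whether the numbers pair the samples. The number of arrays limits the precision.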

Additional observations from a re-analysis of the deposited data

Results flagged for a closer look

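Within groups of 4 arrays, 11 of 192 sets of values had 1 array far from the other 3, by a criterion that chance meets in about 1 in 20 groups; 4 of the 11 were in NHR. Among called members, Ndufa10 measured 8.55 on NHR female 3, against 8.25 to 8.3 on the other NHR females. Ndufab1 measured 12.38 on NHR female 3, against 12.48 to 12.49. Ndufb9 measured 13.03 on HHR female 1, against 12.99 to 13 on the other HHR females. Ndufs4 measured 13.3 on HHR male 3, against 13.35 on each of the other HHR males. Atp5me measured 9.17 on HHR male 2, against 9.44 to 9.46.

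Among members that did not pass, Cox4i1 measured 12.56 on HHR female 1, against 12.63 to 12.64. Cox5a measured 12.72 on HHR male 4, against 12.84 to 12.86. Atp5f1b measured 13.79 on HHR female 4, against 13.76 on the others, and Atp5mc3 measured 13.48 on NHR female 1, against 13.66 to 13.7. The mean deviation of complex III was -0.023 on HHR female 4, against 0.014 to 0.021 on the other HHR females. It was -0.091 on NHR female 1, against -0.022 to -0.012 on the other NHR females.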

How the results depend on the processing

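Values here are counts of members called, HHR against NHR, or median log2 differences, HHR minus NHR. The causes of the changes were not tested. The values reported had complex I 11 higher and 1 lower, complex III 2 and 1, complex IV 1 and 1, complex V 3 and 1, all members 21 and 6, females 15 and males 2. Complex II stayed at 2 higher and 1 lower in every alternative run. Leaving out the 3 NHR arrays of high score, an alternative chosen after seeing the data, gave complex I 7 higher, complex III 0 higher and 0 lower, complex IV 0 lower, complex V 1 higher and 0 lower with a median of 0.0607, 13 members higher and 3 lower, and 7 in females. Leaving out the 4 NHR arrays of low score, chosen likewise, gave 19 members higher and 18 lower, complex I 6 lower with a median of -0.0365, complex IV 2 higher and 3 lower, complex V 5 lower, 14 in males and 33 in females. Cyclic loess gave complex I 7 higher and 2 lower (median -0.0124), complex III 1 higher and 2 lower (median -0.00341), complex IV 0 lower (median -0.0341), complex V 1 higher, and 8 in females. Quantile normalization gave complex I 6 higher and 2 lower (median -0.0041), complex III 1 higher (median -0.018), complex IV 0 lower, complex V 1 higher and 2 lower, 13 members higher, and 9 in females. A threshold of 0.01 gave complex I 6 higher, complex III 1 higher, complex IV 0 lower, complex V 1 higher and 0 lower, 13 members higher, 7 in females and 1 in males. Median centring gave 0 lower in complexes IV and V. Array weights gave complex IV 2 higher and 0 lower, complex V 0 lower, and 7 in males. Trended and robust moderation gave complex I 2 lower and complex IV 3 higher. Leaving out dim probe sets gave complex I 2 lower and complex IV 2 higher; single-symbol probe sets alone and the mean of all probe sets of a gene each gave complex I 2 lower. With the replicate number as a block, 20 members were higher and 8 lower, complex I had 3 lower and complex IV 0 lower. The labels do not say what these numbers stand for. Of all probe sets, 10.6% were called at the threshold of 0.01 and 23.4% with array weights. Trended and robust moderation called 20.7% and the replicate block 22.5%. Single-symbol probe sets alone gave 25%, the mean of all probe sets of a gene 24.6%, and leaving out dim probe sets 33.5%, each of the features fitted. The counts by sex in the alternatives have no such share beside them.

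Leaving out 1 array at a time gave 16 to 22 members higher and 4 to 10 lower (10 without NHR female 1), complex I 7 to 11 higher and 1 to 4 lower, complex III 1 to 2 higher, complex IV 1 to 2 higher and 0 to 1 lower, complex V 0 to 1 lower, 1 to 8 called in males and 9 to 19 in females. Between 17% and 23.4% of all probe sets were called in these fits. Of the 27 calls, 20 were kept in every such fit. No called member changed sign in any alternative run. Among the fixed core subunits, isoform pairs and c-ring genes that did not pass, the following changed sign. Other members that did not pass are not listed here, and some of them also changed sign. Ndufc2, for example, was 0.06 as deposited and -0.009 after cyclic loess. With quantile normalization, Ndufs1 was -0.0447, Ndufv1 -0.0685, Sdha -0.0488, Uqcrc1 -0.018 and Cox5a -0.0127. With cyclic loess, Ndufs1 was -0.0157, Ndufv1 -0.0458, Sdha -0.0338, Uqcrc1 -6.6e-04 and Cox5a -0.0341. With median centring, Cox4i1 was 0.0112 and Cox6a2 0.00953, and with array weights Cox4i1 was 0.0273 and Cox6a2 0.00368. With the mean of all probe sets Cox5a was -0.0017. Without the 3 NHR arrays Cox4i1 was 0.0614, Cox6a2 0.0235, Atp5mc1 0.0567 and Atp5mc3 0.00991. Without the 4 of low score Ndufv1 was -0.00306, Sdha -0.0313 and Cox5a -0.0016. With 1 array left out, Ndufv1 ran from -0.00921 to 0.0149, Sdha from -0.00482 to 0.0271, Cox4i1 from -0.0299 to 0.0144 and Cox6a2 from -0.0253 to 0.00252. The median difference over all probe sets was -0.03 as deposited and -0.0022 after cyclic loess. Brightness over background was not recorded beside the deposited values, so whether a dim probe set lies above background was not measured; leaving out dim probe sets kept Cox6b2 and dropped Cox6c-ps1.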
